A study of Mus musculus with 4 samples.

Results

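The genes described here encode proteoglycans and glycoproteins of the extracellular matrix. Their 10 symbols were Vcan, Lum, Dcn, Bgn, Fmod, Fn1, Tnc, Fbn1, Eln and Sparc. A gene was included where the platform annotation gave an array row exactly 1 symbol and that symbol was on the list. This found 9 of the 10 genes, each by 1 row, among 19938 genes with a single symbol in all. Fbn1 was not analysed here. Levels were read in mouse livers collected at 8 weeks of age, on 4 Affymetrix whole-transcript arrays, 1 for each genotype. The genotypes were the GHR/MDR2 double knockout, the MDR2 knockout, the GHR knockout and wildtype, and all 4 arrays are labelled male. For every genotype, RNA of 3 livers went into the single pool that was hybridised. Strain, the design of the null alleles and the cells in which they act are not given in the sources used here. GHR is the growth hormone receptor. MDR2 is the product of Abcb4, which carries phosphatidylcholine into bile, and its loss in mice is a model of cholestasis and biliary fibrosis. The series title concerns the effect of growth hormone resistance on that fibrosis.

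Apart from fibronectin, these proteins lie in liver mainly around portal tracts, central veins and the vessel wall, and little of them surrounds healthy hepatocytes. Versican (Vcan) is a large chondroitin sulfate proteoglycan that binds hyaluronan. Lumican (Lum), decorin (Dcn), biglycan (Bgn) and fibromodulin (Fmod) are small leucine-rich proteoglycans, which bind collagen fibrils and set their spacing and thickness. Fibronectin (Fn1), tenascin C (Tnc), elastin (Eln) and SPARC are glycoproteins or fibre proteins through which cells attach to, loosen or stretch their matrix. Scarring of the liver is known for deposition of many of these proteins by stellate cells and portal fibroblasts.

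Values are the authors' array intensities on a linear scale, and differences are given in log2. With 1 array per genotype no pairwise difference has a replicate check, and that small number of arrays sets the precision. The nearest substitute was the agreement between different rows of 1 gene. Over 578 to 586 genes, the robust SD of a single row's log2 difference, derived from the disagreement between such rows, was 0.08 to 0.10. That spread leaves out differences between mice and any array error that both rows of a gene share. Only rows that reached the level filter described next entered it. An intensity of 100, the median of all rows with 1 symbol, was used as a level filter, since intensities under it were not shown to be above background. Ghr intensity was 935 in the double knockout and 1395 in the GHR knockout pool, against 4485 in the MDR2 knockout and 4944 in the wildtype pool. Abcb4 was 689 in the double knockout and 663 in the MDR2 knockout pool, against 1346 in the GHR knockout and 1120 in the wildtype pool. Whether the probes of either gene lie in the deleted part is not given. The hepatocyte gene Alb was between 13255 and 15283 on every array. Xist, which is transcribed from the inactive X chromosome of female cells, was 1400 in the GHR knockout pool and 16 to 18 in the other pools, against its male label. The Y-linked Eif2s3y was 680 there and 840 to 951 elsewhere. Comparisons with the GHR knockout pool carry this mismatch. Its part in them was not tested, and the comparisons of the double knockout with the MDR2 knockout or wildtype pool do not use that array.

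Most of these genes were highest where both MDR2 and GHR were lost and lowest in wildtype liver. This held for 6 of the 8 that reached the level filter on any array, with Fn1 and Eln as the exceptions, and for 17.8% of all 10764 genes that did. Of the 6, Vcan and Fmod reached it only on the double knockout array, so the filter fixed that they were highest there. With median centring the pattern held for 5 of the 8, without Bgn, and for 13.3% of all genes. Vcan, Lum, Dcn, Bgn and Sparc, 5 of the 8, ran down in the order double knockout, MDR2 knockout, GHR knockout, wildtype, an order found in 10.4% of all genes that passed. For Vcan the top place of the double knockout in that order was fixed in the same way. With median centring Bgn left that order too, which left 4 of the 8, against 9.65%. Tnc, under the filter on every array, had the same order as deposited and lost it with median centring. The sizes differed widely. Vcan and Lum spanned 2.32 and 2.22 log2 units over the 4 pools, Dcn, Bgn, Fmod and Sparc between 0.85 and 1.02, Eln 0.67, Tnc 0.50 and Fn1 0.37. In pooled tissue RNA, fewer cells of a type and less RNA per cell cannot be told apart.

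**Figure D1:**
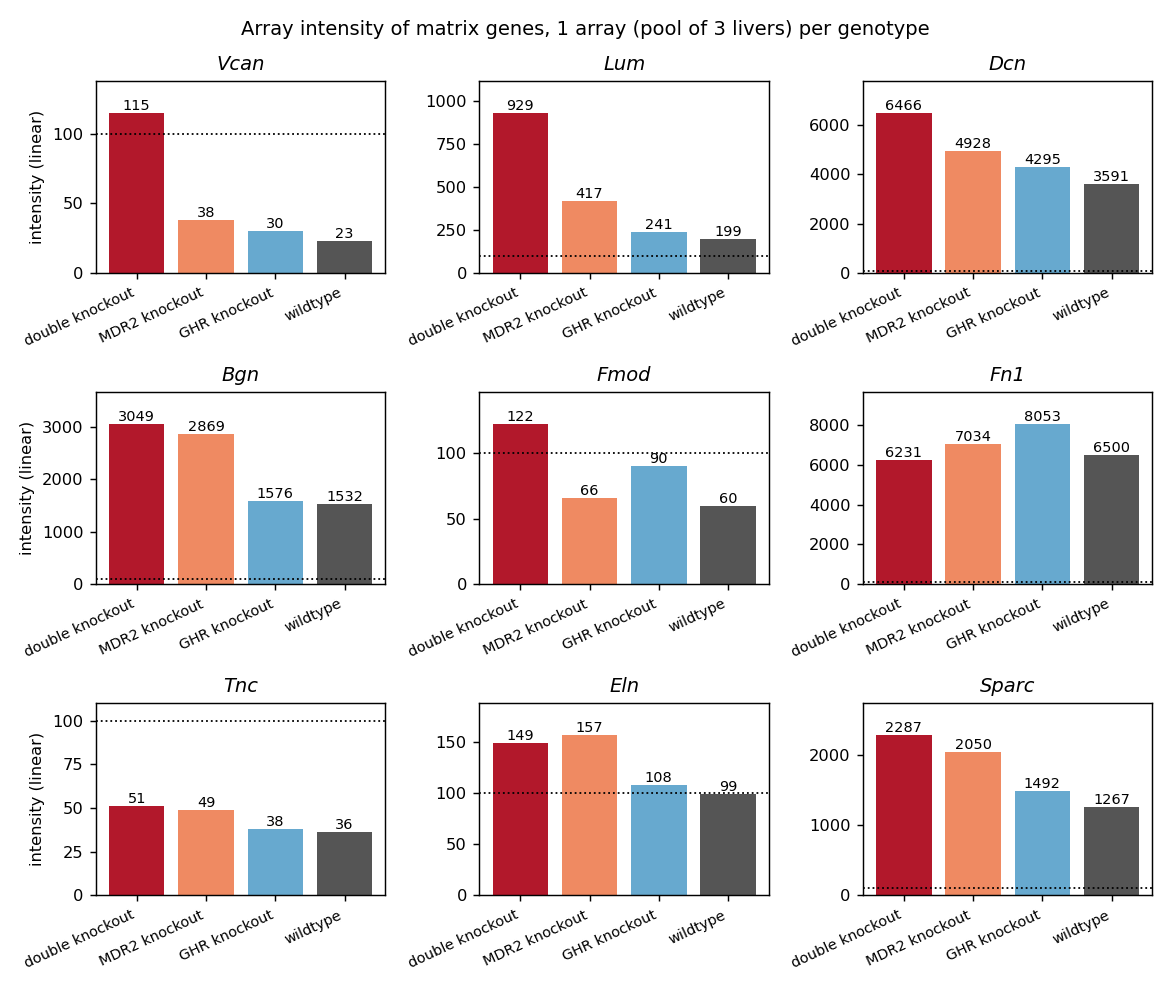
Array intensity (linear scale, from 0) of the 9 matrix genes, 1 bar per pool, with no error bars since each genotype had 1 array; the dotted line is the level filter at 100. Vcan reached it only in the double knockout pool (115), as did Fmod (122), Tnc stayed under it on all 4 arrays, and Fn1 was the only gene of the 9 that was lowest in the double knockout pool.

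Lum, the small proteoglycan that binds collagen fibrils in cornea, skin and other tissues, had an intensity of 929 in the double knockout, 417 in the MDR2 knockout, 241 in the GHR knockout and 199 in the wildtype pool. All 4 values were above the filter. The double knockout pool stood 2.23-fold above the MDR2 knockout, 3.85-fold above the GHR knockout and 4.67-fold above the wildtype pool. Among the 10524 genes compared between the double and MDR2 knockout pools, Lum ranked 148 from the top. Loss of MDR2 alone went with a 2.10-fold higher level, and loss of GHR alone with a 1.21-fold higher one.

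Dcn encodes decorin, which binds collagen and can hold TGF beta in the matrix. Its intensity was 6466 in the double knockout, 4928 in the MDR2 knockout, 4295 in the GHR knockout and 3591 in the wildtype pool. The 4 pools kept the order seen for Lum, with much smaller steps. Dcn was 1.31-fold higher in the double than in the MDR2 knockout pool and 1.80-fold higher than in the wildtype pool. In the RefSeq gene order Lum and Dcn lie side by side on chromosome 10, with only a predicted locus between Dcn and the next gene on its other side. In the double knockout against the MDR2 knockout pool, Lum exceeded Dcn by 0.76 in log2 difference, a gap that was 0.64 with cyclic loess. Between the MDR2 knockout and the wildtype pool that gap was 0.61, and between the GHR knockout and the wildtype pool it was 0.02. Kera and Epyc, the next genes along and members of the same family, were between 16 and 21 on all arrays.

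Bgn, the closest relative of Dcn in this family and also a ligand of Toll-like receptors when released from matrix, gave a different pattern. Its intensity was 3049 in the double knockout and 2869 in the MDR2 knockout pool, against 1576 in the GHR knockout and 1532 in the wildtype pool. The pools thus formed a pair without MDR2 and a pair with it, and within each pair the intensities were close. Bgn was 1.87-fold higher in the MDR2 knockout than in the wildtype pool and 1.93-fold higher in the double than in the GHR knockout pool. The double knockout pool was 0.09 above the MDR2 knockout pool on the log2 scale, a difference of about the size of the single-row robust SD. This difference became -0.0024 when arrays were centred on the median gene.

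Fmod, which guides the assembly of collagen fibrils in tendon and other connective tissue, was 122 in the double knockout, 66 in the MDR2 knockout, 90 in the GHR knockout and 60 in the wildtype pool. Here the pools without GHR held the higher values. The double knockout pool was 1.85-fold above the MDR2 knockout pool, and the GHR knockout pool was 0.58 (log2) above the wildtype pool, at intensities under 100 in both. Counting every intensity under 100 as 100 would leave 1.22-fold for the first of these. Fmod was 0.14 (log2) higher in the MDR2 knockout than in the wildtype pool. Its neighbour Prelp on chromosome 1, another small proteoglycan, was 1075 in the double knockout and 1130 in the MDR2 knockout pool, against 757 in the GHR knockout and 618 in the wildtype pool. Set against Fmod, Prelp was thus higher in both pools without MDR2, and the gap between Fmod and Prelp was 0.96 (log2) for the double against the MDR2 knockout pool and -0.73 for the MDR2 knockout against the wildtype pool.

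Vcan, whose protein swells the provisional matrix of injured tissue, was 115 in the double knockout, 38 in the MDR2 knockout, 30 in the GHR knockout and 23 in the wildtype pool. The double knockout pool stood far above the others, which were all under 40. Its level there was 3.03-fold that of the MDR2 knockout pool (2.97 to 3.08 allowing for the rounding of intensities to whole numbers), rank 63 of 10524. Against the wildtype pool it was 2.32 higher on the log2 scale (4.87-fold to 5.13-fold with rounding). These folds rest on low intensities in the other pools, and with every value under 100 counted as 100 they would be 1.15-fold. Hapln1, the hyaluronan link protein gene beside Vcan on chromosome 13, was 40 in the double knockout, 56 in the MDR2 knockout, 26 in the GHR knockout and 27 in the wildtype pool.

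The remaining 4 genes encode glycoproteins and elastic fibre proteins. Sparc, a collagen-binding protein of remodelling matrix, was 2287 in the double knockout and 2050 in the MDR2 knockout pool, against 1492 in the GHR knockout and 1267 in the wildtype pool. As for Bgn, both pools without MDR2 lay above both pools with it. Sparc was 1.62-fold higher in the MDR2 knockout than in the wildtype pool, 1.53-fold higher in the double than in the GHR knockout pool and 1.12-fold higher in the double than in the MDR2 knockout pool.

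Eln, the elastic core of vessel walls and of portal scars, was 149 in the double knockout and 157 in the MDR2 knockout pool, against 108 in the GHR knockout and 99 in the wildtype pool. The 2 pools without MDR2 were again the higher ones, and the double knockout pool was the lower of them, by 0.08 (log2). Eln was 1.59-fold higher in the MDR2 knockout than in the wildtype pool. Against the wildtype pool the double knockout pool was 1.51-fold higher (1.49 to 1.52 with rounding), at the edge of the 1.5-fold threshold. Tnc, a glycoprotein of wound and tumour matrix, was 51 in the double knockout, 49 in the MDR2 knockout, 38 in the GHR knockout and 36 in the wildtype pool. None of these reached 100, so Tnc is not among the genes counted as passing the filter.

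Fn1 went its own way. Hepatocytes make the plasma form of fibronectin. Its intensity was 6231 in the double knockout, 7034 in the MDR2 knockout, 8053 in the GHR knockout and 6500 in the wildtype pool. The GHR knockout pool was highest and the double knockout pool lowest, within a range of 0.37 log2 units. The double knockout pool was 0.17 lower than the MDR2 knockout pool and 0.37 lower than the GHR knockout pool on the log2 scale. Its difference from the wildtype pool was -0.06, or 0.03 with cyclic loess scaling. The single Fn1 row does not separate the plasma from the cellular splice form.

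Promoter sequences are shown for the pair that reached the level filter in the double knockout pool alone (Vcan and Fmod) and for a pair that was higher with MDR2 loss in both GHR backgrounds (Bgn and Sparc). They are RefSeq windows from 250 bases before to 50 bases after the start of transcription on build GRCm38.p6. Such windows were at hand for 5 of the 9 genes, the fifth being Tnc. The Vcan window is chr13:89742463-89742762 on the minus strand, the Fmod window chr1:134037004-134037303 on the plus strand, the Bgn window chrX:73483351-73483650 on the plus strand and the Sparc window chr11:55420031-55420330 on the minus strand. Capitals mark matches, on either strand, to any of 5 motifs. These were the TATA box, spelled TATAAA, the CCAAT box, the AP-1 site, spelled TGANTCA, the SMAD-binding element, spelled CAGAC, and the STAT site, spelled TTCNNNGAA. None of the 5 motifs overlaps another in these 4 windows.
Vcan: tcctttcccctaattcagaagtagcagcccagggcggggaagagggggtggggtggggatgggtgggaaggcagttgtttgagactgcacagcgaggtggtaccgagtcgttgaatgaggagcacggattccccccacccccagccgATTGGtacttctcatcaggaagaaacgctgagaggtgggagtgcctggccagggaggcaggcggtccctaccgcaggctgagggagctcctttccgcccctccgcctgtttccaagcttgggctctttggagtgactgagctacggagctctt
Fmod: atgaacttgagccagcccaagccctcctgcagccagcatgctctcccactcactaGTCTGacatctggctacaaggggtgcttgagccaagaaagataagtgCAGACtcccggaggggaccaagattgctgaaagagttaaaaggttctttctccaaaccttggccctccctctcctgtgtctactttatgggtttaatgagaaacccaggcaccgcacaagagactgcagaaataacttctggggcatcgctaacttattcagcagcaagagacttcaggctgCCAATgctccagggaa
Bgn: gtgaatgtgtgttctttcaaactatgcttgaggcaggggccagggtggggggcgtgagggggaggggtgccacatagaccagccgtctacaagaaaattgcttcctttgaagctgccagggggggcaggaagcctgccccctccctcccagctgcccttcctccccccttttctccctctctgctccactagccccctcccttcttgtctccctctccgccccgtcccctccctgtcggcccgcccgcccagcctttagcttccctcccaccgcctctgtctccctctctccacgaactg
Sparc: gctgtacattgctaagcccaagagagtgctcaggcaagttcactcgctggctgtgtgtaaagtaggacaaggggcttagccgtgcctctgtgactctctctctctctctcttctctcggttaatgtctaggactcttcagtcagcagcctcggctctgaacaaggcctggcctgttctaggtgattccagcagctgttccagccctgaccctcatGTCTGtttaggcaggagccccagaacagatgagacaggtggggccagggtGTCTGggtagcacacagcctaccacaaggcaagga
The Vcan window held 1 CCAAT match on the opposite strand, starting 103 bases before the start of transcription. The Fmod window held 1 CCAAT match, 34 bases after the start, and 2 CAGAC matches, 195 and 148 bases before it. Sparc had 2 CAGAC matches, both on the opposite strand, and Bgn had no match to any of the 5. No AP-1 or STAT match lay in the 4 windows. Of 32851 promoter windows of this length, 37.4% held CCAAT, 49.6% CAGAC, 13.6% TATAAA, 7.81% TGANTCA and 8.3% TTCNNNGAA. The G and C content was 61% for Vcan, 51% for Fmod, 63.7% for Bgn and 55.3% for Sparc, against a median of 52.7% over all windows.

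The comparison that the title names sets the double knockout against the MDR2 knockout pool. Vcan, Lum and Fmod were at least 1.5-fold higher in the double knockout pool, at 3.03-fold, 2.23-fold and 1.85-fold. These are 3 of the 8 measured genes that passed the filter in this comparison, against 7.17% of the 10524 genes compared. None of the 8 was 1.5-fold lower, against 3.89% of all genes. Vcan and Fmod passed only through the double knockout array, where they were high. With every intensity under 100 counted as 100, a setting chosen after seeing the data, Lum alone of the 8 was called higher (5.97% of all genes higher, 3.6% lower). Dcn followed at 1.31-fold, Sparc at 1.12-fold and Bgn at 1.06-fold, and Eln and Fn1 were 0.08 and 0.17 lower (log2). The median of all 9 was 0.16, against 0.00 for all 19938 genes, and it was 0.07 with median centring.

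Against the wildtype pool, the double knockout pool was at least 1.5-fold higher for 7 of the 8 genes that passed, where 13.7% of 10487 genes were. Lum was 4.67-fold higher. Vcan (2.32 in log2) and Fmod (2.03-fold) passed only through the double knockout array, and with the floor at 100 they were 1.15-fold and 1.22-fold higher. Bgn, Sparc and Dcn were 1.99-fold, 1.81-fold and 1.80-fold higher. Eln was the seventh, and its call was lost with cyclic loess, with either centring, with a pseudocount of 16 and with the floor, at 1.49-fold. The floor left 4 of the 8, namely Lum, Bgn, Sparc and Dcn (11.2% of all genes higher, 7.2% lower). None was 1.5-fold lower, against 7.59% of all genes. The median of the 9 genes was 0.85, against 0.00 over all genes.

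Loss of MDR2 could be read in both GHR backgrounds from pairs of arrays that share none: double knockout over GHR knockout, and MDR2 knockout over wildtype. Lum, Bgn and Sparc were at least 1.5-fold higher in both. They are 3 of the 6 measured genes that passed the filter in both pairs, against 4.6% of 10008 genes, and none was lower in both, against 1.96%. Bgn differed by 0.95 (log2) without GHR and 0.91 with it, and Sparc by 0.62 and 0.69. Lum differed by 1.95 without GHR and 1.07 with it. In the pair without GHR, 5 of 8 genes were at least 1.5-fold higher, against 9.99% of 10514 genes, and none was 1.5-fold lower, against 9.94%. These were Lum (3.85-fold), Bgn (1.93-fold), Sparc (1.53-fold), Dcn (1.51-fold) and Vcan (3.83-fold), of which Vcan passed only through the double knockout array and was 1.15-fold higher with the floor. The floor left the other 4 (8.03% of all genes higher, 9.33% lower). In the pair with GHR intact, 4 of 6 were higher by that much, against 6.11% of 10258 genes, and none lower, against 3.58%. Here they were Lum (2.10-fold), Bgn (1.87-fold), Sparc (1.62-fold) and Eln (1.59-fold), and the same 4 were called with the floor (4.64% of all genes higher, 3.26% lower). The median of all 9 genes was 0.59 without GHR and 0.67 with it, against -0.02 and 0.00 over all genes.

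Loss of GHR gave no such call in the pair with MDR2 intact. Of the 6 genes that passed the filter between the GHR knockout and the wildtype pool, none was 1.5-fold higher or lower, against 4.26% and 2.48% of 10052 genes. All 9 measured genes stood above 0, between 0.04 for Bgn and 0.58 for Fmod, and their median was 0.26, against 0.05 over all genes. Median centring, which moved all genes by -0.12 in this comparison, brought Bgn to -0.08 and Tnc to -0.04 and the median of the 9 to 0.14. Read in both MDR2 backgrounds, loss of GHR went with no gene of the 6 at least 1.5-fold higher in both pairs (1.37% of 9812 genes) or lower in both (1.22%). With the floor, none of the 6 was called between the GHR knockout and the wildtype pool (3.57% of all genes higher, 2.19% lower). The Xist mismatch of the GHR knockout pool stands beside these values.

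At a 2-fold threshold, Vcan and Lum were higher in the double than in the MDR2 knockout pool (2.31% of all genes higher, 1.56% lower). The same pair was higher in the double than in the GHR knockout pool (4.72% higher, 3.1% lower). Against the wildtype pool, Vcan, Lum and Fmod were higher in the double knockout pool (6.88% higher, 2.98% lower). Lum alone was higher in the MDR2 knockout than in the wildtype pool (2.35% higher, 0.76% lower), and no gene of the set was in the GHR knockout pool (1.06% higher, 0.985% lower). None of the set was 2-fold lower in any comparison. The Vcan and Fmod calls at 2-fold rest on intensities under 100 in the other pool.

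**Figure D2:**
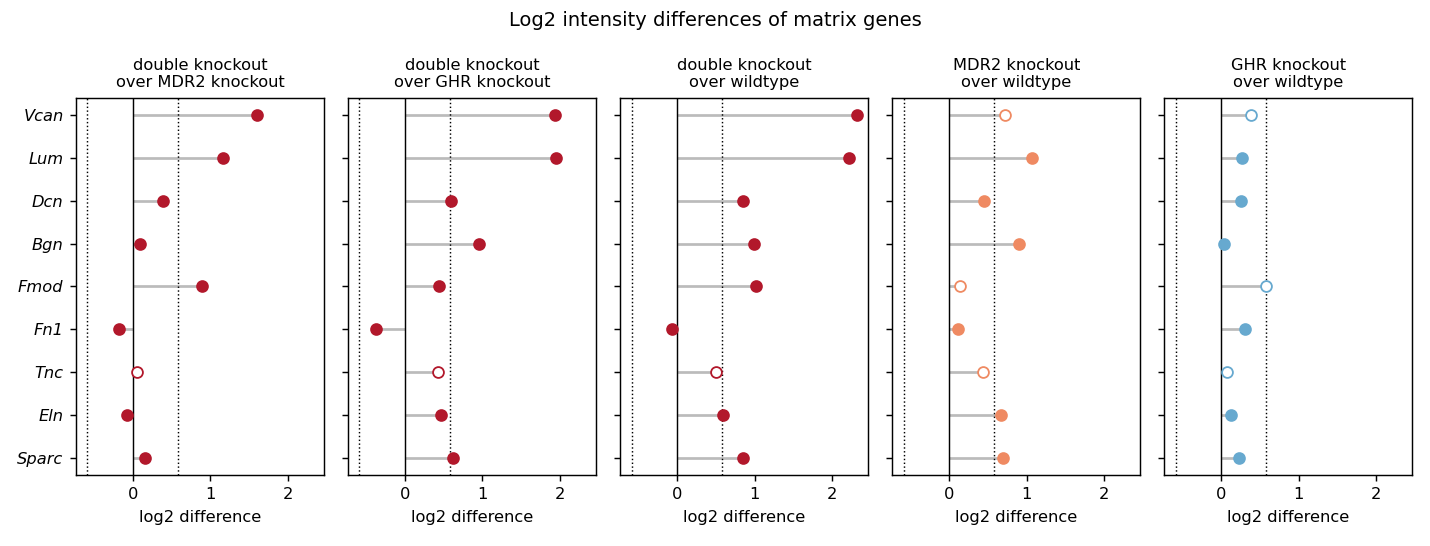
Log2 intensity difference (x axis) of each of the 9 matrix genes in the 5 comparisons; filled points passed the level filter in that comparison, open points did not, and dotted lines mark 1.5-fold. Vcan and Lum lie farthest right in the 3 comparisons of the double knockout pool, while Bgn, Sparc and Eln lie near 0 when it is compared with the MDR2 knockout pool.

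**Figure D3:**
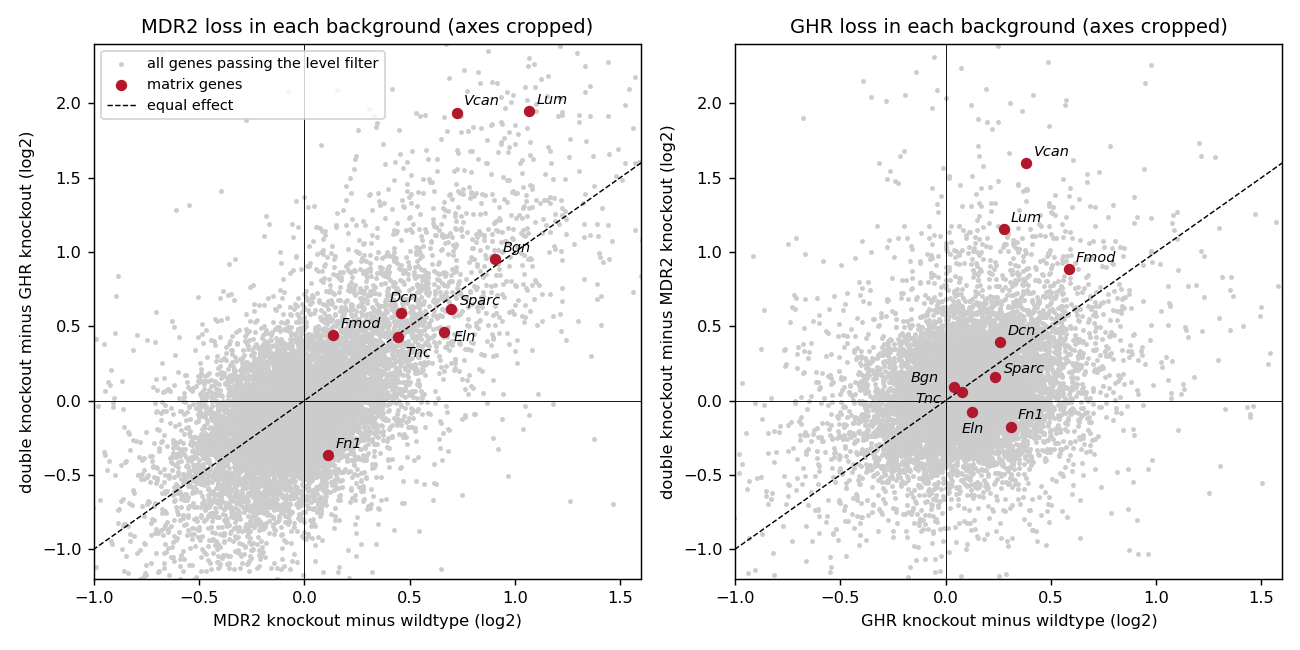
Log2 effect of MDR2 loss (left) and of GHR loss (right) with the other gene lost (y axis) against the effect with it intact (x axis), for all genes passing the level filter on any array (grey) and the 9 matrix genes (red), with cropped axes. The distance from the line of equal effect is the same number in both panels by construction. It is small for Bgn and Sparc and large for Lum, and for Vcan, Fmod and Tnc it rests on intensities under the filter.

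The only replicate information across arrays comes from treating MDR2 and GHR status as additive factors over all 4 arrays, with limma and Benjamini-Hochberg adjustment over 10764 genes. In that fit 2 of the 8 genes tested passed for MDR2 loss, against 3.75% of all genes. Bgn had an average effect of 0.93 ± 0.14 (log2, SE; limma adjusted p = 0.037) and Lum one of 1.51 ± 0.23 (limma adjusted p = 0.041). Over the alternative settings these adjusted p ranged from 0.030 to 0.33 for Bgn and from 0.032 to 0.33 for Lum, and neither passed with hepatocyte centring, without the level filter or with a filter at 329. With cyclic loess Bgn passed and Lum did not (limma adjusted p = 0.050). Sparc (0.66 ± 0.14, limma adjusted p = 0.070) and Vcan (1.33 ± 0.30, limma adjusted p = 0.077) did not pass. For GHR loss 0 of the 8 passed limma, against 0.52% of all genes, and 3 of them had an unadjusted p under 0.05, as did 13.1% of all genes. These were Lum, and Fmod and Vcan, which passed the filter only through the double knockout array. The same limit holds for the Vcan estimate for MDR2 loss, whose SE was 0.54 with trend and robust settings. In the 1 simulated data set drawn per effect, the share of false calls among all calls was above 0.05. That threshold bounds the share only on average over many data sets, so 1 draw cannot show whether the fit exceeds it. The Bgn and Lum calls lie close to the threshold. The fit takes an effect to be the same in both backgrounds, leaves 1 residual degree of freedom per gene and cannot be made without the GHR knockout array.

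Lum departed most from that additive picture among the genes with all 4 intensities above 100. If the log2 effects of the single losses added up, the double knockout pool would have held Lum at 505, against the observed 929. The excess was 0.88 on the log2 scale, at rank 253 of 10764 genes, where the robust SD of all genes was 0.32. For Vcan the additive value was 49.6 and the observed 115, an excess of 1.21 at rank 109, but its 3 other intensities were under 100. With the floor at 100 the Vcan excess was 0.20, at rank 2469, while that of Lum stayed at 0.88. As deposited both exceeded 1.5-fold, as did 5.28% of all genes, and none of the set was that far below, against 6.72%. The other 7 lay within 1.5-fold of the sum. Bgn was at 3049 against an additive 2951, Sparc at 2287 against 2414, Tnc at 51 against 51.7, Dcn at 6466 against 5894 and Eln at 149 against 171. Fmod, whose 3 other intensities were also under 100, was 0.30 above. Fn1 was 0.48 below, at 6231 against an additive 8715. With a pseudocount of 16, the Vcan excess was 1.04. The additive values use the GHR knockout array and so carry its Xist mismatch, whose part in them was not tested. An interaction has no test with 4 arrays.

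**Figure D4:**
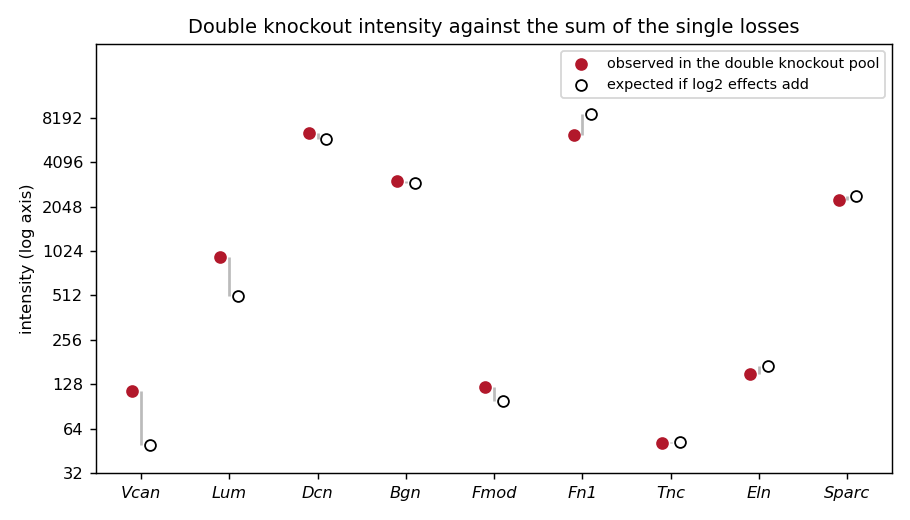
Intensity of the 9 matrix genes in the double knockout pool (filled) and the intensity expected if the log2 effects of the single losses added up (open), on a log axis. The expected intensity uses the GHR knockout array, whose Xist level goes against its male label. The observed value lies above the additive one for Lum (929 against 505) and for Vcan (115 against 49.6, which rests on intensities under 100), below it for Fn1 (6231 against 8715), and close to it for Bgn, Sparc, Dcn and Tnc.

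Genes that work with these proteins were read from 8 lists, whose counts stand beside 7.17% of all genes higher and 3.89% lower in the double against the MDR2 knockout pool (5.97% and 3.6% with the floor at 100). In the double knockout against the MDR2 knockout pool, proteases that cut versican, decorin or fibronectin were at least 1.5-fold higher for 8 of the 9 that passed the filter, and none was lower. The matrilysin Mmp7 was 502 against 113, the macrophage elastase Mmp12 was 374 against 133, the versican-cleaving Adamts9 was 400 against 193 and the gelatinase Mmp2 was 544 against 287. With the floor, 6 of the 9 were higher. Over all 18 measured proteases the median was 0.11, since the 9 others were under the filter in this comparison.

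Tenascins and matricellular genes were higher by that fold for 8 of 15 and lower for none, and for 7 of 15 with the floor. Sparcl1, the closest relative of Sparc, was 1437 in the double knockout, 326 in the MDR2 knockout, 239 in the GHR knockout and 124 in the wildtype pool, while Sparc itself differed by 1.12-fold between the first 2 of these. Ccn2, a target of TGF beta and of YAP, was 2197 in the double and 532 in the MDR2 knockout pool, Mgp was 313 and 151, and Smoc2, of the SPARC family, was 344 and 176. The median of the 27 measured genes was 0.03, and -0.06 with median centring.

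Elastic fibre and microfibril genes were higher for 4 of 17, with or without the floor, and lower for none, with a median of 0.31 over 21 measured. Efemp1, an extracellular fibulin, was 867 in the double and 324 in the MDR2 knockout pool, the microfibril-associated Adamtsl2 was 356 and 174, and the latent TGF beta binding protein Ltbp1 was 243 and 125. Fbln5, which brings elastin to cells, was 348 and 224. Eln, at 149 and 157, did not share that difference. Receptors of fibronectin, tenascin C and elastin were higher for 5 of 13 (4 with the floor) and lower for none, with a median of 0.44 over 14 measured. The integrin subunits Itgb8 (205 and 80) and Itga8 (256 and 146), the lectin Lgals3 (317 and 205) and Tlr4 (116 and 61), a receptor of released biglycan, had the largest differences.

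In the hyaluronan list, 1 of 10 genes was higher and 2 were lower (1 with the floor), with a median of -0.21 over 22 measured. Cd44, the main hyaluronan receptor, was 488 in the double knockout, 229 in the MDR2 knockout, 112 in the GHR knockout and 74 in the wildtype pool. Its level thus ran in the order seen for Vcan. The lower ones were Hapln4, a link protein gene, at 69 against 132, and Itih1, which encodes a heavy chain transferred onto hyaluronan, at 1582 against 2657. Lyve1, a hyaluronan receptor of lymphatic and sinusoidal endothelium, was 105 against 148. Enzymes that build glycosaminoglycan chains were 1.5-fold apart for none of 25, with a median of 0.04 over 33 measured (-0.05 with median centring). Chst15 and Chst14, which act on chondroitin and dermatan sulfate, had the largest differences, at 431 against 288 and 183 against 131. Heparan sulfate proteoglycans of basement membrane and cell surface were higher for 1 of 13, Gpc3, an oncofetal glypican, at 175 against 44, and their median over 16 measured was -0.22. The other small leucine-rich proteoglycans were 1.5-fold apart for none of 3, namely Nyx, Podn and Prelp, with a median of -0.10 over 12 measured.

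For the MDR2 knockout against the wildtype pool the counts of the same lists stand beside 6.11% of all genes higher and 3.58% lower (4.64% and 3.26% with the floor). With the floor, 7 of 14 matricellular genes, 2 of 7 proteases, 3 of 11 receptors, 1 of 15 elastic fibre genes and 2 of 10 hyaluronan genes were higher. As deposited the counts were these. Matricellular genes were at least 1.5-fold higher for 8 of 14, with Nid1, a basement membrane linker, at 727 against 199 and Sparcl1 at 326 against 124. Proteases were higher for 4 of 7, with Mmp12 at 133 against 51 and Mmp2 at 287 against 142. Matrix receptors were higher for 3 of 11, among them Tlr2 at 264 against 92 and Itga4 at 185 against 90. Elastic fibre genes were higher for 3 of 15, with Adamtsl2 at 174 against 102 and the microfibril protein gene Mfap4 at 138 against 89. In the hyaluronan list 2 of 10 were higher, Cd44 at 229 against 74 and Itih5 at 333 against 112. Heparan sulfate proteoglycans were higher for 1 of 12, the secretory granule proteoglycan Srgn at 988 against 593, and glycosaminoglycan enzymes for none of 24. Prelp was the higher 1 of 3 other small leucine-rich proteoglycans. No gene of the 8 lists was 1.5-fold lower.

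**Figure D5:**
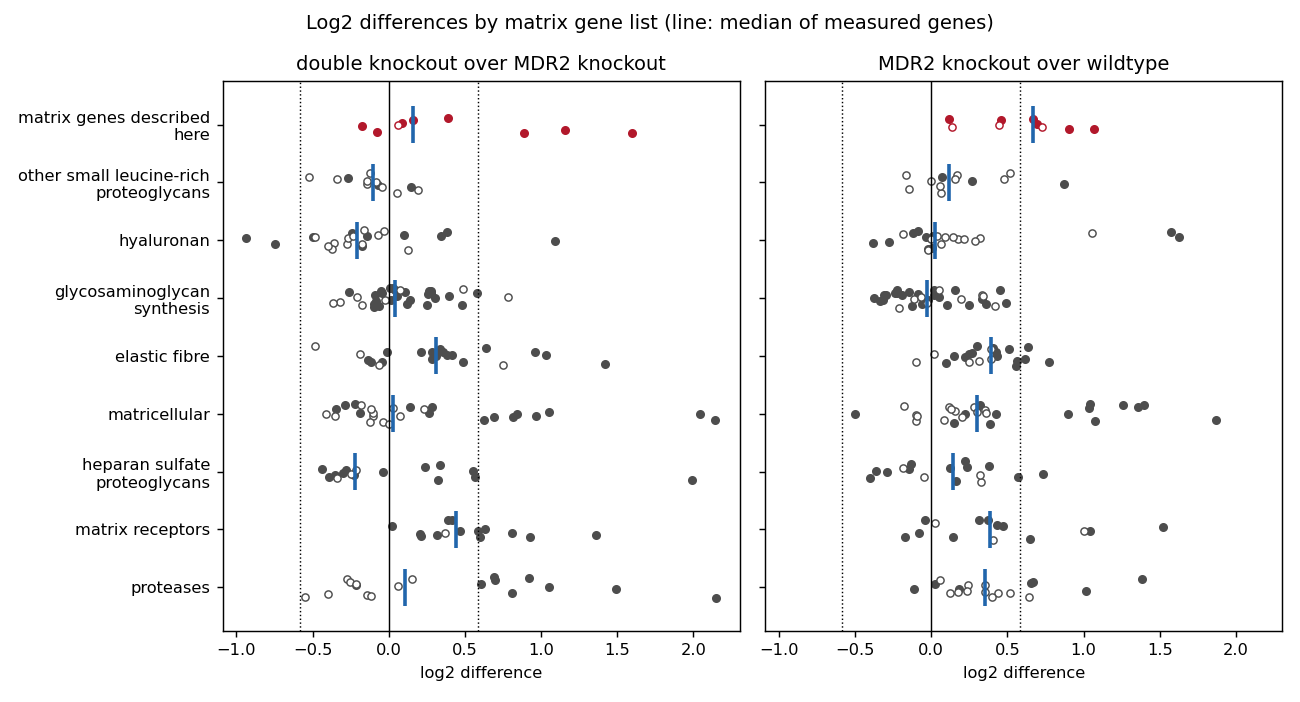
Log2 difference (x axis) of each measured gene of the 9 described here (red) and of 8 lists of matrix genes (dark), for the double over the MDR2 knockout pool (left) and the MDR2 knockout over the wildtype pool (right). Filled points passed the level filter, open points did not, blue lines are medians of all measured genes and dotted lines mark 1.5-fold; the matrix receptors have the highest median of the 8 lists on the left (0.44).

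Markers of several cell types differed along with these genes. Summed over the list, the 13 measured bile duct markers reached an intensity of 3035 in the double knockout, 1446 in the MDR2 knockout, 1002 in the GHR knockout and 826 in the wildtype pool. In the double against the MDR2 knockout pool, 10 of the 11 that passed were at least 1.5-fold higher, against 7.17% of all genes, and 8 with the floor, since some passed only through the double knockout array. Among the 10 were Tspan8 at 281 against 66, Cftr at 141 against 36, Epcam at 329 against 113 and Cldn4 at 314 against 139. The 12 macrophage markers summed to 11041 in the double knockout, 8110 in the MDR2 knockout, 5089 in the GHR knockout and 3659 in the wildtype pool. Of 10 that passed, 4 were higher in the double than in the MDR2 knockout pool (3 with the floor), among them Cx3cr1 at 525 against 168. The 16 stellate cell and myofibroblast markers summed to 6881 in the double knockout, 5850 in the MDR2 knockout, 4968 in the GHR knockout and 4090 in the wildtype pool. Of these, 4 were 1.5-fold higher and 2 lower in the double than in the MDR2 knockout pool, against 7.17% and 3.89% of all genes. Pdgfra was 446 against 205, Hgf 774 against 402, Timp1 229 against 129 and Reln 1246 against 711. The lower ones were Lrat at 393 against 608 and Ngfr at 155 against 239, while Col1a2 was 409 against 403.

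The 13 portal fibroblast and mesothelial markers summed to 2466 in the double knockout, 2128 in the MDR2 knockout, 1621 in the GHR knockout and 1349 in the wildtype pool. In the double against the MDR2 knockout pool 1 of 8 was higher, against 7.17% of all genes. This was Cd34 at 314 against 151, which endothelium also expresses. In that comparison Dpt was 191 against 271 and Gas6 967 against 759. Smooth muscle markers summed to 422 in the double knockout, 461 in the MDR2 knockout, 424 in the GHR knockout and 383 in the wildtype pool, with Smtn alone above the filter and none apart. Endothelial markers summed to 5233 in the double knockout, 5522 in the MDR2 knockout, 6447 in the GHR knockout and 5174 in the wildtype pool. Hepatocyte markers summed to 119297 in the double knockout, 126402 in the MDR2 knockout, 123009 in the GHR knockout and 132287 in the wildtype pool. Of the 10 endothelial markers none was 1.5-fold apart in the double against the MDR2 knockout pool. Of the 14 hepatocyte markers 2 were lower there, against 3.89% of all genes. These were G6pc at 1487 against 4743 and Serpina1c at 4466 against 7081. In the MDR2 knockout against the wildtype pool, 7 of 8 bile duct, 7 of 10 macrophage, 7 of 16 stellate and 5 of 6 portal fibroblast and mesothelial markers that passed were at least 1.5-fold higher, against 6.11% of all genes. With the floor at 100 these were 1 of 8, 6 of 10, 6 of 16 and 4 of 6, against 4.64%. None of the 14 hepatocyte or 10 endothelial markers was, and no marker of any list was 1.5-fold lower, against 3.58% of all genes. No marker was at 0. The part of any of these cell types in the matrix gene levels was not tested.

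The genes whose pattern lay closest to the 4 widest-ranging matrix genes were found by the Euclidean distance over the 3 log2 differences from the wildtype pool, among 10764 genes. Nearest to Vcan was Ace, which encodes angiotensin-converting enzyme, at a distance of 0.13, with 239 in the double knockout, 89 in the MDR2 knockout, 68 in the GHR knockout and 52 in the wildtype pool. Bst1 and Anxa13 followed at 0.22 and 0.23. For Lum the nearest were Serpinb6a (0.09), Lrmda (0.12) and Clec7a (0.14), the gene of the fungal receptor dectin-1, which was 408 in the double knockout, 203 in the MDR2 knockout, 108 in the GHR knockout and 88 in the wildtype pool. For Bgn they were Ehd4 (0.05), 2010003K11Rik (0.06) and Ptgr1 (0.10), and for Fmod they were Hivep2 (0.13), Sorbs3 (0.13) and Leprot (0.14). The 3 differences share the wildtype array. Vcan, Fmod, Ace, Bst1, Anxa13 and Lrmda were under 100 in every pool but the double knockout. Distances that involve them rest on intensities not shown to be above background.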

How the data were processed

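RNA from 4 mouse liver pools was measured on 1 Affymetrix whole-transcript array per genotype. Per the submitters' processing notes, the deposited intensity values came from RMA in Affymetrix Expression Console 1.1, and they are whole numbers from 6 to 22355 on a linear scale. The authors' normalization was kept and log2 was taken. Of 35556 rows, 21789 had 1 symbol in GEO's platform annotation, 1621 several and 12146 none. A gene with several rows (999 of 19938) took its brightest. By gene identifier 21698 rows matched the RefSeq table of GRCm38.p6, with the same symbol throughout. Arrays correlated at a Pearson r of 0.970 to 0.988 across rows. A gene was called at 1.5-fold with the higher array at or above 100. Limma 3.58.1 in R 4.3.3 fitted additive MDR2 and GHR status, with a threshold of 0.05 on adjusted p. It was run on 1 simulated data set per effect, where the share of false calls was above 0.05. A single draw cannot show whether that holds on average. Alternatives were cyclic loess, centring on the median gene or on hepatocyte markers, the mean of a gene's rows, a pseudocount of 16, no filter or a filter at the 75th percentile (329), 2-fold, and limma with trend and robust settings. Counting every intensity under 100 as 100 (the floor) was added after seeing the data. The matrix genes, lists and tests were chosen with earlier results of these data known. From each list the text names up to 4 genes with the largest difference between the double and MDR2 knockout pools and up to 2 between the MDR2 knockout and wildtype pools, among those at or above 100 on any array. Kera, Epyc and Hapln1 were named for their place beside a described gene. Lrat and Ngfr were named after their values were seen. Nearest genes were limited to 3.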

Additional observations from a re-analysis of the deposited data

Results flagged for a closer look

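Opposite signs in the 2 backgrounds were seen for Fn1 and Eln, from 1 array per genotype, and the difference was not tested. For Fn1 the log2 effect of GHR loss was -0.17 without MDR2 and 0.31 with it, and that of MDR2 loss was -0.37 without GHR and 0.11 with it. Both Fn1 contrasts are the same departure from additivity, -0.48. For Eln the effect of GHR loss was -0.08 without MDR2 and 0.13 with it, against a single-row robust SD of 0.08 to 0.10. With median centring the Eln effects were -0.17 and 0.0042. All these contrasts use the GHR knockout array, whose Xist level goes against its male label.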

How the results depend on the processing

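No paired analysis was possible because each genotype had 1 array, and no array could be left out of a fit. In the double over the MDR2 knockout pool, 3 of 8 genes were 1.5-fold higher, against 7.17% of all genes. Double over GHR knockout gave 5 of 8, against 9.99%. Over wildtype, the double knockout gave 7 of 8 (13.7%), the MDR2 knockout 4 of 6 (6.11%) and the GHR knockout 0 of 6 (4.26%). A filter at 329 was reached by 5 of the set on any array. With it the double over MDR2 knockout count was 1 and the double knockout over wildtype count 4. Shares of all genes 1.5-fold higher were not computed at that filter or without a filter. With the floor at 100, chosen after seeing the data, both counts were again 1 and 4, against 5.97% and 11.2% of all genes. Vcan and Fmod were lost from both and Eln from the second. A 2-fold threshold gave 2, 3 and 1 for the double over GHR knockout, double knockout over wildtype and MDR2 knockout over wildtype pools. Over all genes 4.72%, 6.88% and 2.35% were that much higher. Without the filter, the GHR knockout over wildtype count was 1 (Fmod) and the MDR2 knockout over wildtype count 5, with Vcan added. The median of genes passing the filter was 0.27 for the double over the MDR2 knockout pool, and it was 0.18 with median centring and 0.16 both without the filter and with the filter at 329. For the GHR knockout over the wildtype pool it was 0.25, and 0.13 with median centring. Limma's count for MDR2 loss was 2, against 1 with cyclic loess and 0 with hepatocyte centring, without the filter and with the filter at 329, and the cause was not tested. Over all genes, limma called 404 for MDR2 loss, against 176 with hepatocyte centring, 69 with the filter at 329 and 0 without it, where 2927 had an unadjusted p under 0.05. For GHR loss it called 56, against 32 with the filter at 329 and 0 without it, where 1828 did. No call turned its direction. Low intensity limits Vcan, Fmod and Tnc, and Eln lay near the filter, at 99 to 157.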
